A study of Mus musculus with 16 samples.

Results

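Imiquimod (IMQ) is a small synthetic agonist of the endosomal RNA sensor TLR7. Its effect on gene expression after 24 h was measured in dendritic cells grown from mouse bone marrow, as the difference between 4 IMQ arrays and 4 mock arrays, 8 of the 16 arrays of the series, over all 22180 genes that a probe set named alone. Where several probe sets named the same gene, the one with the highest mean was taken. The cells were called GM-DC by the submitters, came from male C57/B6 mice and had been cultured for 10 days with GM-CSF at 20 ng/ml, so the mock and IMQ groups shared the strain, the sex and the growth factor. IMQ was given at 3 uM according to the series text and at 3 ug/ml according to the sample text, and the labels do not say what the mock treatment contained. The other 8 arrays came from cells that also received 0.5 mM palmitic acid (PA) bound to albumin, alone or with IMQ. The submitters called the replicates biological without naming animals or cultures, so p-values here measure the spread between these arrays, which may be technical. Bone marrow cultured with GM-CSF is known to yield a mixture of dendritic cells and macrophages and not a single cell type, and in such bulk samples fewer cells of a type and less RNA per cell cannot be told apart.

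TLR7 sits in endosomes, where it meets single-stranded RNA or imidazoquinolines such as IMQ, and signals through the adaptor MyD88 and IRAK kinases. Both arms of the response follow in myeloid cells. NF-kB and MAP kinases drive cytokine and chemokine genes, and interferon regulatory factors drive type I interferon and its target genes. Feedback inhibitors that the same factors induce then limit the response, so that a sample at a late time holds early genes, secondary genes and their brakes together.

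Values are log2 RMA values, and changes are IMQ minus mock on that scale, each followed by ± its standard error from the model. A gene was called when its p from limma, adjusted by Benjamini-Hochberg across the 22180 genes, was under 0.05, and only called genes are said to have risen or fallen. Values below 4.93, the level under which 95% of 1447 odorant, vomeronasal, trace amine and taste receptor genes lay, are termed dim. Where 1 of the 2 groups had a dim mean, the change is given as at least the distance of the other mean from that level. An array has no read depth, and the number of arrays limits the precision.

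The mock arrays were not alike in the genes that IMQ raised. Mock replicate 4 was the lowest of the 4 mock arrays in 116 of the 159 genes that rose by 2 or more (73.0%), against 24.4% of all genes. In those 159 genes the median SD was 0.20 among mock arrays and 0.07 among IMQ arrays, against 0.11 and 0.11 over all genes. The mock values spanned over 1 in 19 of the 159 and the IMQ values in 0. In the 118 genes that fell by 2 or more, mock replicate 4 was the lowest in 14.4% and the highest in 39.0%, and the median SD was 0.07 among mock arrays. The 4 arrays with PA and no IMQ also differed in some of these genes. On them Il6 read 4.12, 3.998, 7.43 and 8.225, and Cxcl3 read 5.84, 6.24, 8.32 and 9.21. The standard errors from the model draw on all 4 groups and so include that spread. Whether mock replicates 1 to 3 or mock replicate 4 is the better baseline was not tested. Several changes that rest on it, among them those of Ccl4, Cxcl5 and Clec4e, are given from all 4 mock arrays only. Others are also given without mock replicate 4, and with mock replicate 4 as the only mock array. That array was then assumed to vary like the other groups. Of the called genes named here, Btk, Csf1r, Csf2rb, Il23a, Irak1, Irf2, Itgam, Mir99b, Myd88, Pdia3, Ppbp and Tyk2 lost the call in that last fit. The counts of a gene list moved by at most 2 members without mock replicate 4 and by at most 4 against it alone. Within each group the arrays correlated at 0.994 to 0.996 over all genes.

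The cells carried the markers of a GM-CSF culture on all arrays. The integrin Itgax (CD11c), the integrin Itgam (CD11b) and the class II chain H2-Ab1 had mock means of 11.09, 11.60 and 12.32, and the GM-CSF receptor chains Csf2ra and Csf2rb had 10.93 and 9.42. The 10 measured markers of B, T and NK cells were dim in both groups, with summed values of 40.60 to 42.64 on the mock arrays and 40.53 to 41.44 on the IMQ arrays. Of 13 measured markers of conventional dendritic cells 2 were dim in both groups, Xcr1 (4.63 ± 0.21 mock, 4.57 ± 0.23 IMQ) and Itgae (4.67 ± 0.13 and 4.66 ± 0.05). The other 11 had at least 1 mean above the dim level, and 8 of the 13 rose and 2 fell. Zbtb46, a factor of the conventional lineage, had 5.47 ± 0.27 and 5.97 ± 0.03. Of 13 measured markers of macrophages and monocytes 1 was dim in both groups, and 3 rose and 10 fell. Csf1r (11.77 ± 0.04 mock, 11.58 ± 0.03 IMQ), Adgre1 (10.09 ± 0.08 and 11.64 ± 0.05) and Lyz2 (13.15 ± 0.06 and 12.92 ± 0.01) were bright in both groups, while Ccr2 had a dim IMQ mean (4.73). The plasmacytoid marker Siglech, from the cell type best known for TLR7-driven interferon, was dim (4.75 ± 0.17 and 4.61 ± 0.13).

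IMQ changed 34.8% of all genes. Of 22180 genes tested, 3766 were called higher (17.0%) and 3961 lower (17.9%), with a median change of 0.015 over all genes. Most changes were small, with a median size of 0.40 among the higher and 0.43 among the lower calls, and 1138 genes (5.13%) changed by at least 1. A rise of 2 or more was called in 159 genes and a fall of that size in 118. Values of the 2 groups did not overlap, with IMQ higher, in 16.7% of all genes, and with IMQ lower in 17.5%. Among the 13409 genes with at least 1 mean above the dim level, 25.0% were called higher and 27.5% lower. These shares are the background for every gene list below.

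**Figure D1:**
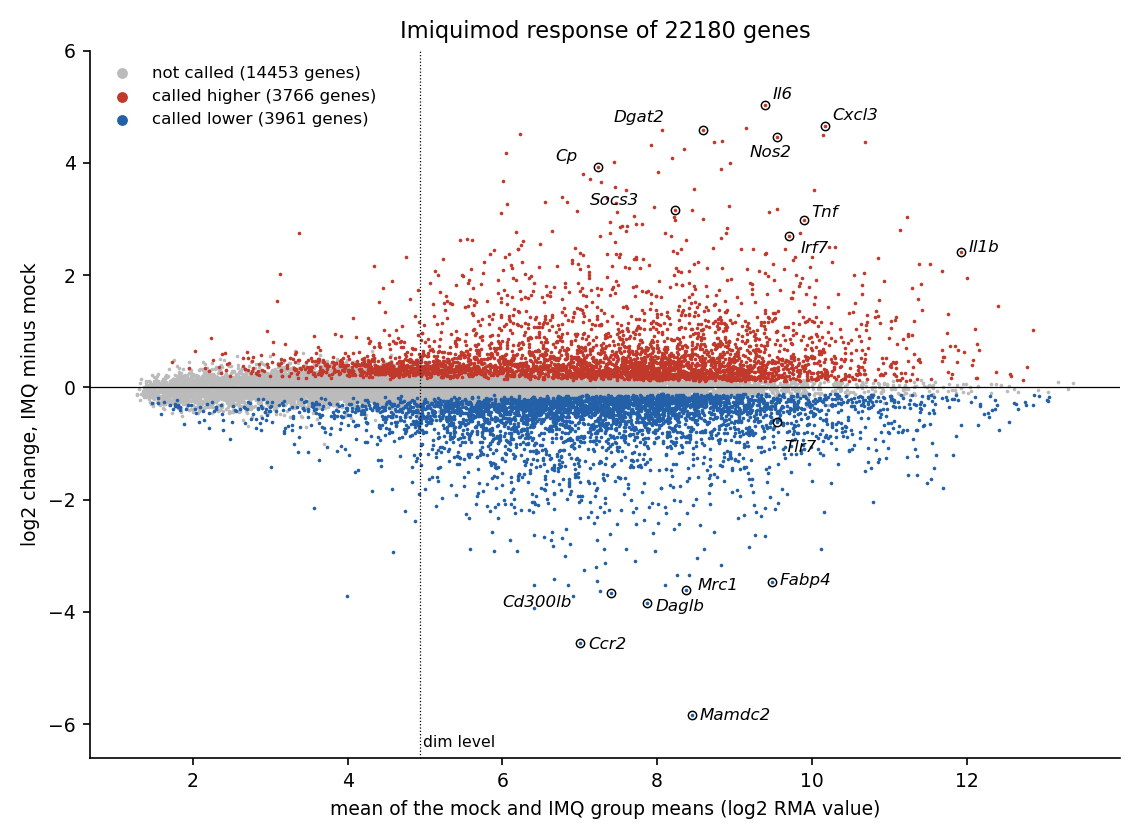
Each point is 1 of 22180 genes. The x axis is the average of the mock and IMQ group means (log2 RMA value), the y axis is the log2 change IMQ minus mock, colour marks the 3766 genes called higher and the 3961 called lower, and the dotted line is the dim level of 4.93. Il6 and Cxcl3 lie at the top and Mamdc2 and Ccr2 at the bottom, while Tlr7 lies among many genes with small falls.

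The 3 genes given as markers of this response, Il6, Nos2 and Socs3, all rose. Il6, the cytokine of the acute phase response, read 7.57, 7.90, 7.71 and 4.32 on the mock arrays and 11.90, 11.86, 11.86 and 12.02 on the IMQ arrays. Every IMQ array lay above every mock array, and mock replicate 4 lay far below the other 3 and was dim. The change was 5.04 ± 0.88 (adjusted p = 0.000232, a 32.8-fold difference of group means on the log2 scale), or 4.19 without mock replicate 4 and at least 6.98 against it alone. Nos2, the inducible nitric oxide synthase, read 7.77, 7.96, 7.96 and 5.57 on the mock arrays and 11.84, 11.71, 11.78 and 11.75 on the IMQ arrays. Its groups also did not overlap, and its change of 4.46 ± 0.48 became 3.87 without mock replicate 4 and 6.20 against it alone. Socs3, which blocks signalling downstream of the interleukin 6 receptor, read 6.73, 6.77, 6.76 and 6.38 on the mock arrays and 9.89, 9.83, 9.86 and 9.67 on the IMQ arrays. That gene changed by 3.15 ± 0.11 (adjusted p = 1.86e-12), with 3.06 and 3.43 under the 2 baselines.

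**Figure D2:**
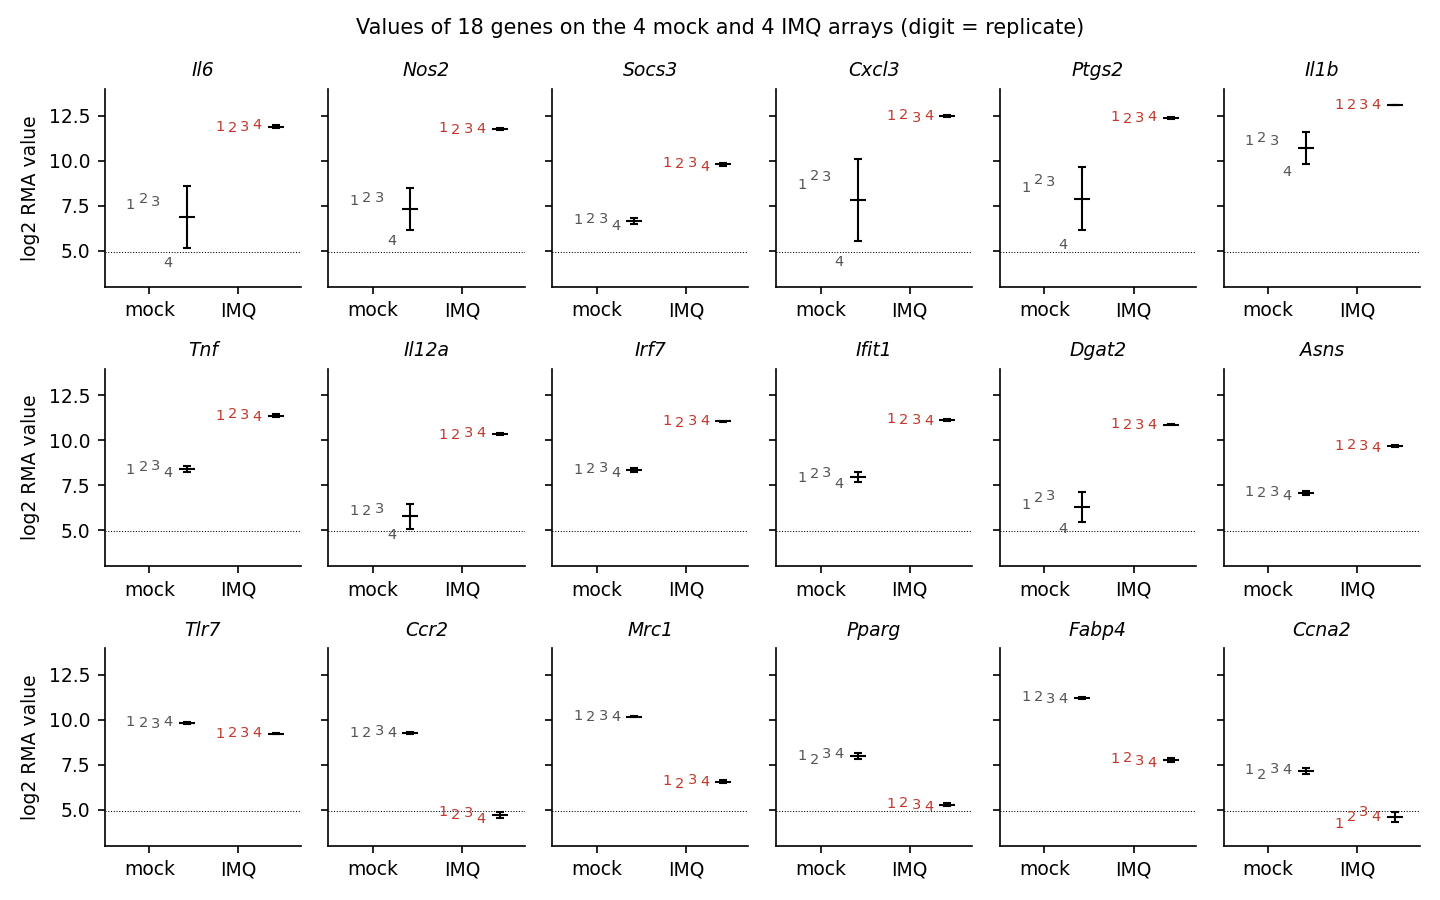
Values of 18 genes on the mock arrays (grey digits) and IMQ arrays (red digits), with the log2 RMA value on the y axis, the digit naming the replicate, the bar and whiskers showing the mean and SD of 4 arrays, and the dotted line the dim level. In Il6, Nos2, Cxcl3, Ptgs2, Il12a and Dgat2 mock replicate 4 lies below the other mock arrays, and in Tlr7, Ccr2, Mrc1 and Fabp4 the 4 mock arrays lie close together above the IMQ arrays.

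The receptor of the drug and most endosomal sensors were lower after IMQ. In the list of endosomal sensors and their escort, 3 of 13 measured members rose and 8 fell (median log2 change -0.27). Tlr7 itself read 9.89, 9.83, 9.77 and 9.90 on the mock arrays and 9.21, 9.25, 9.26 and 9.24 on the IMQ arrays. The groups did not overlap, and the fall was small (-0.61 ± 0.05, adjusted p = 3.07e-08). Tlr8, another sensor of RNA, read 10.18, 10.12, 10.20 and 10.16 on the mock arrays and 8.39, 8.30, 8.21 and 8.30 on the IMQ arrays and changed by -1.87 ± 0.05, a difference of 3.65-fold. The bacterial ribosomal RNA sensor Tlr13 (-1.69 ± 0.05) and Slc15a4, the endolysosomal transporter that TLR7 and TLR9 signalling needs (-1.31 ± 0.06), fell with it. Lgmn, a protease that cleaves endosomal TLRs, fell (-1.44 ± 0.04). The double-stranded RNA sensor Tlr3 rose (0.81 ± 0.07), and so did the gene listed as 5430427O19Rik, known as Tasl, the partner through which SLC15A4 recruits IRF5 (0.34 ± 0.08).

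Adaptors and kinases of the pathway moved little. In that list 8 of 12 measured members rose and 3 fell (median log2 change 0.27), and the largest rises were Irak2 (0.52 ± 0.06), Myd88 (0.45 ± 0.08), Tab2 (0.39 ± 0.04) and Map3k8 (0.41 ± 0.05). Myd88 read 9.45, 9.49, 9.52 and 9.58 on the mock arrays and 10.11, 9.86, 10.05 and 9.78 on the IMQ arrays, without overlap, and lost its call against mock replicate 4 alone (adjusted p = 0.0624). Irak1 (-0.28 ± 0.07) and Btk (-0.21 ± 0.05) fell slightly. Among the surface receptors 4 of 9 measured members rose and 3 fell (median log2 change 0.001). Tlr1, a partner of TLR2 for lipopeptides, read 7.05, 7.12, 7.43 and 7.09 on the mock arrays and 9.35, 9.32, 9.26 and 9.29 on the IMQ arrays and rose by 2.14 ± 0.08. Cd14, a co-receptor that also aids TLR7 and TLR9 ligand uptake, rose by 1.84 ± 0.08. The radioprotective homologue Cd180 and its partner Ly86, a pair related to TLR4 and MD-2, both fell, Cd180 from 10.05 ± 0.02 to 7.16 ± 0.15 and Ly86 by -1.04 ± 0.06.

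NF-kB genes and their inhibitors rose together in count. All 4 measured subunit genes rose (median log2 change 0.76), led by Nfkb2 (1.34 ± 0.06) and Rel (0.91 ± 0.05). Among inhibitors and feedback genes 12 of 15 measured members rose and 1 fell (median log2 change 1.41). Nfkbiz, an atypical IkB protein needed for Il6 and Il12b expression, read 6.78, 6.93, 7.15 and 6.61 on the mock arrays and 9.99, 9.97, 10.10 and 10.02 on the IMQ arrays. It had the largest change of the list (3.15 ± 0.10), followed by the ubiquitin-editing enzyme Tnfaip3, known as A20 (2.33 ± 0.07), and by Irak3, the pseudokinase that restrains MyD88 signalling (2.14 ± 0.07). Nfkbia, the classical inhibitor, read 9.71, 9.77, 9.72 and 9.43 on the mock arrays and 11.70, 11.71, 11.72 and 11.63 on the IMQ arrays, which gave 2.03 ± 0.07.

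The kappa B core, spelled GGNNTTTCC here and searched on both strands, is the binding sequence of NF-kB. It stood in the RefSeq promoter window (250 bases before to 50 after a start site, GRCm38.p6) of 5 of 13 members of the inhibitor list that had a window, against 6.80% of all genes tested and 5.82% of all windows. Matches describe letters, not binding. The stretch before the start of Tnfaip3 (chr10:19015411-19015484, minus strand) is shown as that of the list's largest called change with a match. Its 2 matches, in capitals and on opposite strands, lie within 24 bases of the start:
Tnfaip3: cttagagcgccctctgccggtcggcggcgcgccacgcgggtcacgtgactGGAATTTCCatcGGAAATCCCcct

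Signalling brakes of the cytokine receptors followed. In the list of SOCS, STAT and JAK genes 9 of 17 measured members rose and 2 fell (median log2 change 0.24). Socs1, which restrains interferon receptors, read 6.10, 6.16, 6.05 and 6.08 on the mock arrays and 8.91, 9.01, 9.03 and 8.98 on the IMQ arrays. Its change of 2.89 ± 0.08 was close to that of Socs3. The kinase gene Jak2 rose by 1.90 ± 0.09 and Cish by 1.29 ± 0.11, while Socs6 (-1.28 ± 0.07) and Tyk2 (-0.21 ± 0.06) fell. Of the MAP kinase phosphatases 7 of 11 measured members rose and 2 fell (median log2 change 0.57). Dusp16, a phosphatase of JNK, had the largest rise there (3.001 ± 0.10), ahead of Dusp1 (1.61 ± 0.06) and Dusp4 (1.38 ± 0.11), while Dusp3 fell (-1.29 ± 0.05). Immediate early and AP-1 genes were divided. In that list 10 of 19 measured members rose and 4 fell (median log2 change 0.23), with Batf (1.95 ± 0.07), Nr4a2 (1.58 ± 0.09), Nr4a1 (1.34 ± 0.11) and Fosl2 (1.10 ± 0.05) higher and Egr2 (-2.06 ± 0.06) and Jun (-1.14 ± 0.06) lower.

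Interferon target genes rose, while the transcript of interferon beta was dim. Ifnb1, the gene of interferon beta, read 3.32, 3.86, 3.56 and 3.61 on the mock arrays and 3.77, 3.42, 3.63 and 3.68 on the IMQ arrays, dim on all 8 arrays, and was not called (0.04 ± 0.13). Among interferons and their receptors 3 of 8 measured members rose and 1 fell (median log2 change 0.08), and the receptor chain Ifnar2 had the largest change (1.16 ± 0.05). In contrast, of the antiviral effectors 22 of 23 measured members rose and 0 fell (median log2 change 1.44). Ifi205, a member of the interferon-inducible p200 family, read 6.92, 7.55, 7.46 and 5.43 on the mock arrays and 11.41, 11.43, 11.50 and 11.47 on the IMQ arrays. Its change of 4.62 ± 0.35 was 4.15 without mock replicate 4 and 6.02 against it alone. Ifit1, which binds viral RNA caps, read 7.93, 8.15, 8.20 and 7.55 on the mock arrays and 11.20, 11.14, 11.11 and 11.06 on the IMQ arrays, with less spread among the mock arrays (3.17 ± 0.11). The oligoadenylate synthetase-like Oasl1 (2.95 ± 0.11) and the ubiquitin-like modifier Isg15 (2.75 ± 0.11) came next.

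Irf7, the factor that amplifies type I interferon, read 8.36, 8.40, 8.47 and 8.18 on the mock arrays and 11.08, 10.98, 11.06 and 11.08 on the IMQ arrays. With a change of 2.70 ± 0.06 (adjusted p = 2.78e-14) it was among the 10 genes with the highest moderated t on the higher side. Of the interferon regulatory factors 5 of 7 measured members rose and 1 fell (median log2 change 0.52), with Irf1 (0.65 ± 0.05), Irf9 (0.58 ± 0.05) and Irf8 (0.52 ± 0.04) higher and Irf2 (-0.18 ± 0.05) lower. All 13 measured guanylate-binding proteins and immunity-related GTPases, which coat and disrupt vacuoles of pathogens, were called higher (median 1.51). Gbp5 read 5.71, 5.82, 6.02 and 5.11 on the mock arrays and 9.21, 9.20, 9.34 and 9.21 on the IMQ arrays. Its change was 3.58 ± 0.14, ahead of Gbp3 (2.38 ± 0.09), Gbp4 (2.18 ± 0.22) and Gbp7 (2.12 ± 0.06).

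The interferon-stimulated response element was searched as GAAANNGAA. It stood in the windows of 11 of 17 antiviral genes with a window (64.7%), against 9.28% of all genes tested and 8.56% of all windows. Among genes with a window, it stood in a window of 22 of 112 called higher by 2 or more (19.6%). The same held for 11 of 90 called lower by 2 or more (12.2%). The promoter stretch of Ifi205 (chr1:174031831-174031939, minus strand) is shown as that of the antiviral gene with the largest rise, with the match in capitals:
Ifi205: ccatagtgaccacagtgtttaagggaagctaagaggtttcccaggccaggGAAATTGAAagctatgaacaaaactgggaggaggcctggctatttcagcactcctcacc

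Cytokine genes of the interleukin 12 family rose, all 5 of 5 measured (median log2 change 1.64). Il12a, the p35 subunit of interleukin 12, read 6.08, 6.06, 6.20 and 4.75 on the mock arrays and 10.32, 10.28, 10.42 and 10.39 on the IMQ arrays. The groups did not overlap, mock replicate 4 was dim, and the change was 4.58 ± 0.26, 4.24 without mock replicate 4 and at least 5.42 against it alone. Il12b, the p40 subunit shared with interleukin 23, read 8.49, 8.68, 8.67 and 8.03 on the mock arrays and 11.25, 11.20, 11.26 and 11.20 on the IMQ arrays (2.76 ± 0.12). Il27 (1.64 ± 0.08) and Ebi3 (1.09 ± 0.05), the 2 subunits of interleukin 27, rose less. Il23a, the subunit particular to interleukin 23, had a dim mock mean (4.50 ± 0.18) and an IMQ mean of 5.19 ± 0.22, a change of at least 0.26. Its call was lost against mock replicate 4 alone (adjusted p = 0.0855).

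Interleukin 1 genes rose from a high base. Of that family and its receptors 9 of 16 measured members rose and 4 fell (median log2 change 0.86). Il1b read 11.09, 11.28, 11.08 and 9.40 on the mock arrays and 13.11, 13.12, 13.13 and 13.13 on the IMQ arrays. The IMQ values lay near the highest value of any array in the table (13.53), and the change was 2.41 ± 0.36, 1.97 without mock replicate 4 and 3.73 against it alone. Il1a read 10.02, 10.32, 10.20 and 8.28 on the mock arrays and 12.76, 12.72, 12.73 and 12.77 on the IMQ arrays and changed by 3.04 ± 0.43, or 2.56 without mock replicate 4 and 4.46 against it alone. The interleukin 36 gamma gene, listed as Il1f9, rose by 2.13 ± 0.07, and the interleukin 36 alpha gene, listed as Il1f6, by at least 1.24. Both chains of the interleukin 18 receptor fell, Il18r1 by -1.18 ± 0.12 on the signed scale and Il18rap from 6.02 ± 0.12 to a dim 4.81 ± 0.04.

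Around Il6, in the list of gp130 cytokines and colony-stimulating factors, 8 of 16 measured members rose and 6 fell (median log2 change 0.26). Lif rose by 1.98 ± 0.12 and Csf3, the granulocyte growth factor, by 1.95 ± 0.17, while Csf2, which encodes GM-CSF itself, rose from a dim mean of 3.57 to 5.34. The receptor chains Il6st (-1.003 ± 0.05) and Il6ra (-0.89 ± 0.06) fell. Of the other cytokines 11 of 15 measured members rose and 1 fell (median log2 change 0.57). Tnf read 8.36, 8.51, 8.55 and 8.17 on the mock arrays and 11.35, 11.45, 11.43 and 11.31 on the IMQ arrays, a change of 2.98 ± 0.08 (adjusted p = 1.01e-13), and kept a similar size without mock replicate 4 (2.91). Inhba, the activin A chain, rose by 2.66 ± 0.14 (2.49 without mock replicate 4 and 3.17 against it alone), and Tnfsf15, also called TL1A, by 2.14 ± 0.07. Il10, the main anti-inflammatory cytokine of myeloid cells, rose from a dim mean to 6.17 (at least 1.24).

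CXC chemokines that attract neutrophils were among the largest rises. Of the CXC chemokines 9 of 13 measured members rose and 1 fell (median log2 change 0.86). Cxcl3 read 8.67, 9.15, 9.11 and 4.40 on the mock arrays and 12.51, 12.55, 12.41 and 12.51 on the IMQ arrays. The mock arrays spanned more than the distance between the upper mock arrays and the IMQ arrays. The change was 4.67 ± 0.89 (adjusted p = 0.000518), 3.52 without mock replicate 4 and at least 7.56 against it alone. Cxcl1 changed by 4.39 ± 0.44 and Cxcl2 by 4.37 ± 0.45, with the same array low. Without it the changes were 3.90 and 3.79, and against it alone 5.87 and at least 5.99. Cxcl5 rose by 3.72 ± 0.15. Cxcl10, an interferon-induced attractant of T cells, read 5.93, 6.14, 6.001 and 5.63 on the mock arrays and 9.10, 9.02, 9.11 and 8.96 on the IMQ arrays (3.12 ± 0.13), whereas Ppbp, the platelet basic protein, fell (-0.63 ± 0.12).

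Of the CC chemokines 7 of 13 measured members rose and 2 fell (median log2 change 0.31). Ccl4, also called MIP-1 beta, rose by 3.23 ± 0.16, and the CCR2 ligands Ccl7 and Ccl2 rose by 2.92 ± 0.12 and 2.49 ± 0.09. Ccl3 read 11.13, 11.24, 11.16 and 10.61 on the mock arrays and 12.995, 13.002, 12.91 and 13.01 on the IMQ arrays. Its change of 1.94 ± 0.13 was 1.80 without mock replicate 4 and 2.37 against it alone. Ccl22, which draws CCR4-bearing T cells, was already high and rose little (0.73 ± 0.04). Ccl6 (-1.10 ± 0.06) and Ccl9 (-0.47 ± 0.04), both abundant in the mock arrays, fell.

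The receptors for these signals changed in both directions. In that list 6 of 17 measured members rose and 7 fell (median log2 change -0.11). Ccr2, which brings monocytes out of the marrow, read 9.26, 9.24, 9.37 and 9.28 on the mock arrays and 4.88, 4.72, 4.83 and 4.49 on the IMQ arrays. It fell from a bright to a dim mean (adjusted p = 3.81e-13), a fall of at least 4.36, and the 4 mock arrays were alike. Ccr7, which guides dendritic cells to lymph nodes, read 10.23, 10.24, 10.23 and 10.08 on the mock arrays and 11.24, 11.19, 11.16 and 11.25 on the IMQ arrays and changed by 1.02 ± 0.05. Fpr2, a receptor of formylated peptides, rose by 2.39 ± 0.09 and Ccrl2, which binds chemerin, by 2.08 ± 0.09. The complement receptor C3ar1 (-1.03 ± 0.05), Cx3cr1 (-0.81 ± 0.13) and Cxcr4 (-0.87 ± 0.04) fell.

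Ligands that activate T cells rose, while the class II presentation genes fell. Of the costimulatory and coinhibitory ligands 12 of 18 measured members rose and 5 fell (median log2 change 0.96). Cd40 rose by 2.38 ± 0.09, Tnfsf9 by 2.17 ± 0.08 and Cd80 by 1.86 ± 0.06. Cd86 read 6.87, 6.92, 6.98 and 6.82 on the mock arrays and 8.24, 8.35, 8.36 and 8.29 on the IMQ arrays (1.41 ± 0.07). Slamf1 rose from a dim mean to 6.49. Havcr2, the checkpoint receptor TIM-3, fell by the most of its list, from 7.52 ± 0.19 to 5.41 ± 0.14, and Tnfsf14 (LIGHT) fell to a dim mean.

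In class II presentation 2 of 11 measured members rose and 9 fell (median log2 change -0.67). H2-DMa, which loads peptide onto class II, fell from 9.95 ± 0.09 to 8.12 ± 0.08 (adjusted p = 7.87e-13). Ciita, the transactivator of the class II genes, changed by -1.36 ± 0.08, and Ifi30, the lysosomal thiol reductase, by -0.83 ± 0.04. The chains of the classical molecules fell less, from 11.27 to 10.60 for H2-Aa and from 12.32 to 12.01 for H2-Ab1. The 2 risers were H2-Ob (1.10 ± 0.12) and H2-Oa (0.65 ± 0.07), the chains of the molecule known to inhibit H2-DM. Class I went the other way by count. There 11 of 15 measured members rose and 2 fell (median log2 change 0.67), with the peptide transporters Tap1 (1.59 ± 0.05) and Tap2 (0.95 ± 0.05), the immunoproteasome subunit Psmb9 (0.85 ± 0.05) and Nlrc5, the class I transactivator (0.93 ± 0.07), higher, and the loading chaperones Calr (-0.18 ± 0.04) and Pdia3 (-0.20 ± 0.04) slightly lower.

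Receptors for uptake and recognition of glycans, lipids and dying cells mostly fell. Among the C-type lectin receptors 5 of 23 measured members rose and 14 fell (median log2 change -0.37). Mrc1, the mannose receptor, read 10.19, 10.14, 10.22 and 10.17 on the mock arrays and 6.61, 6.44, 6.66 and 6.54 on the IMQ arrays. With -3.62 ± 0.06 (adjusted p = 7.45e-15) it had the largest moderated t in size of all genes on the lower side. Clec4b1 fell to a dim mean (a fall of at least 0.92), and Clec7a, the beta-glucan receptor Dectin-1, fell (-1.56 ± 0.04). Clec4e, the receptor Mincle, read 10.47, 10.57, 10.67 and 10.01 on the mock arrays and 12.64, 12.67, 12.61 and 12.61 on the IMQ arrays and rose (2.20 ± 0.11), as did Clec4a1 (2.06 ± 0.09). Of the scavenger receptors 2 of 17 measured members rose and 8 fell (median log2 change -0.20). Mertk (-2.08 ± 0.06) and Colec12 (-2.58 ± 0.06) fell, as did Cd36 (-1.10 ± 0.04), while Marco, a scavenger receptor of bacteria, read 6.87, 6.79, 6.68 and 6.43 on the mock arrays and 9.80, 9.66, 9.73 and 9.74 on the IMQ arrays and rose (3.04 ± 0.10).

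Complement genes fell in 9 and rose in 3 of 15 measured (median log2 change -0.28). The 3 chains of C1q, which are made by macrophages, fell together, C1qb by -2.05 ± 0.05, C1qc by -1.87 ± 0.08 and C1qa by -1.67 ± 0.08 on the signed scale. Factor B of the alternative pathway, Cfb, rose (2.19 ± 0.08). Among the Fc receptors 5 of 10 measured members rose and 3 fell (median log2 change 0.23), with Trim21 (1.15 ± 0.07), Fcgr4 (1.15 ± 0.06) and Fcgr1 (0.84 ± 0.05) higher and Fcrls (-2.18 ± 0.09) and Fcgrt (-0.90 ± 0.06) lower. In the CD300, Ms4a, SIRP and Siglec list 12 of 26 measured members rose and 9 fell (median log2 change 0.04). Cd300lb, a receptor of phospholipids, fell from 9.23 ± 0.12 to 5.57 ± 0.17, while Siglece, an inhibitory sialic acid receptor, rose from 5.07 ± 0.18 to 8.46 ± 0.11. The TREM receptors were divided, with Trem1 (2.91 ± 0.12) and Trem3 (2.61 ± 0.11) higher and Trem2 (-2.65 ± 0.07) lower. Siglecf fell (-2.57 ± 0.06), and Ms4a4c rose by at least 2.76.

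Marker lists of cell types differed in how many members changed. Of the 13 measured macrophage and monocyte markers 3 rose (Adgre1, Ly6c2 and Fcgr1) and 10 fell, and their summed values were 130.66 to 131.06 on the mock arrays and 119.23 to 120.26 on the IMQ arrays. Of the 13 conventional dendritic cell markers 8 rose and 2 fell, with summed values of 90.25 to 91.49 on the mock arrays and 95.61 to 96.50 on the IMQ arrays. Neutrophil markers held 3 higher and 3 lower of 13, against 17.0% and 17.9% of all genes. Of these markers 5 were dim in both groups, among them Ly6g, Mpo, Ltf and Camp. Others were bright, such as Mmp8, which fell (12.34 to 10.64), and Csf3r, which rose (8.43 to 8.72). Their summed values were 73.73 to 74.40 on the mock arrays and 72.53 to 73.22 on the IMQ arrays. The part of cell numbers in the changes above was not tested.

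Killing and iron genes mostly rose, and more eicosanoid genes fell than rose. In the list of nitric oxide, arginine and itaconate 9 of 13 measured members rose and 0 fell (median log2 change 1.50). Besides Nos2, Acod1, which makes itaconate, read 9.81, 9.76, 9.82 and 9.43 on the mock arrays and 12.04, 12.04, 11.97 and 11.98 on the IMQ arrays and rose (2.31 ± 0.08), as did the superoxide dismutase Sod2 (2.08 ± 0.09) and the arginine transporter Slc7a1 (1.98 ± 0.07). Arg1, which competes with Nos2 for arginine, read 8.46, 8.36, 8.51 and 8.26 on the mock arrays and 10.05, 10.01, 10.002 and 10.18 on the IMQ arrays (1.67 ± 0.09). Eicosanoid genes changed in both directions. There 6 of 18 measured members rose and 10 fell (median log2 change -0.62). Ptgs2, the inducible cyclooxygenase, read 8.49, 8.95, 8.84 and 5.30 on the mock arrays and 12.43, 12.33, 12.37 and 12.45 on the IMQ arrays. Its change was 4.50 ± 0.88, or 3.63 without mock replicate 4 and 7.10 against it alone. Ptges, the microsomal prostaglandin E synthase, rose by 3.54 ± 0.17. The leukotriene enzymes Alox5 (-2.79 ± 0.07) and Ltc4s (-1.13 ± 0.08), the prostaglandin D synthase Hpgds (-2.67 ± 0.07) and the thromboxane synthase Tbxas1 (-0.94 ± 0.05) fell. Alox5 read 8.29, 8.22, 8.25 and 8.34 on the mock arrays and 5.56, 5.36, 5.52 and 5.49 on the IMQ arrays, far apart in the 2 groups.

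Inflammasome genes rose by count. There 9 of 15 measured members rose and 4 fell (median log2 change 0.32), with Casp4 (1.74 ± 0.05), Nlrp3 (1.80 ± 0.05) and Mefv (1.48 ± 0.10) higher and the adaptor Pycard lower (-0.98 ± 0.06). In iron handling 9 of 15 measured members rose and 3 fell (median log2 change 0.44). Cp, the ferroxidase ceruloplasmin, read 5.14, 5.53, 5.46 and 4.95 on the mock arrays and 9.24, 9.24, 9.20 and 9.14 on the IMQ arrays and rose (3.93 ± 0.16). Hamp, the iron hormone hepcidin, rose from a dim mean (at least 2.92). Lcn2, which binds bacterial siderophores, read 10.40, 10.62, 10.44 and 7.47 on the mock arrays and 12.49, 12.55, 12.52 and 12.59 on the IMQ arrays, a change of 2.81 ± 0.58 that was 2.05 without mock replicate 4 and 5.07 against it alone. The zinc and iron importer Slc39a14 rose (1.72 ± 0.08), and Slc40a1, the iron exporter ferroportin that hepcidin removes, fell (-0.91 ± 0.11), with the ferrireductase Steap3 (-1.52 ± 0.15).

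Proteases and adhesion genes were rearranged. Of the metalloproteinases, plasminogen genes and inhibitors 9 of 20 measured members rose and 9 fell (median log2 change 0.12). Serpinb2, an inhibitor of urokinase, read 8.42, 8.47, 8.51 and 7.66 on the mock arrays and 11.72, 11.85, 11.75 and 11.81 on the IMQ arrays and rose (3.52 ± 0.16, 3.32 without mock replicate 4 and 4.12 against it alone), whereas Plau, urokinase itself, fell from 9.26 ± 0.06 to 6.17 ± 0.21. Mmp9 (2.69 ± 0.07) and Mmp2 (2.27 ± 0.07) rose with the inhibitor Timp1 (1.28 ± 0.12), and Timp2 fell (-2.32 ± 0.05). Among integrins and adhesion genes 9 of 24 measured members rose and 14 fell (median log2 change -0.27). Itga5 rose (1.60 ± 0.05). Itgax, the defining integrin of dendritic cells, read 11.06, 11.09, 11.11 and 11.12 on the mock arrays and 9.43, 9.35, 9.42 and 9.34 on the IMQ arrays, a fall of 3.27-fold, and the actin-linked tensins Tns1 (-3.71 ± 0.13) and Tns3 (-1.73 ± 0.05) fell too. In purinergic signalling 3 of 14 measured members rose and 7 fell (median log2 change -0.24), and Entpd1 (CD39), which degrades extracellular ATP, fell from 9.50 ± 0.08 to 7.07 ± 0.03.

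Genes of the ATF4 programme, which supplies amino acids under stress, rose. Of ATF4 effectors and amino acid transporters 19 of 23 measured members rose and 0 fell (median log2 change 1.05). Asns, asparagine synthetase, read 7.14, 7.05, 7.15 and 6.91 on the mock arrays and 9.70, 9.77, 9.69 and 9.59 on the IMQ arrays (2.63 ± 0.06, adjusted p = 2.78e-14). Ddit4, an inhibitor of mTORC1, changed by 2.69 ± 0.10, the transporter Slc7a5 by 2.14 ± 0.09 and the mitochondrial folate enzyme Mthfd2 by 1.98 ± 0.06. The CARE core TGATGNAA, the ATF4 site, stood in the windows of 6 of 20 members with a window, against 3.92% of all genes tested and 3.97% of all windows. The match of Asns (chr6:7693210-7693282, minus strand) lies close to the start and is shown in capitals as that of the list's largest called change with a match:
Asns: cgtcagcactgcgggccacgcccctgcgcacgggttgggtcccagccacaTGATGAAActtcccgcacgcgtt

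Cell cycle genes fell. In that list 4 of 38 measured members rose and 30 fell (median log2 change -0.74). Ccna2, the S phase and G2 cyclin, read 7.22, 6.91, 7.29 and 7.19 on the mock arrays and 4.21, 4.57, 4.90 and 4.60 on the IMQ arrays, a fall of at least 2.22. Ccnb2 (-2.17 ± 0.12) and E2f2 (-1.55 ± 0.09) fell, as did Ube2c, which reached a dim mean. Mki67, the proliferation marker, read 8.67, 8.64, 8.67 and 8.66 on the mock arrays and 7.99, 8.0, 8.26 and 8.05 on the IMQ arrays and fell less (-0.58 ± 0.07). The 4 risers were not a uniform set. Ccnd2, cyclin D2, read 6.34, 6.34, 6.57 and 6.17 on the mock arrays and 9.55, 9.47, 9.66 and 9.59 on the IMQ arrays and rose by 3.21 ± 0.07, and Cdkn1a, the inhibitor p21, by 1.15 ± 0.04, while Tyms (6.60 to 7.73) and Ccnd3 (7.74 to 8.20) made up the rest. The cell cycle homology region TTTGAA stood in a window of 11 of 32 list members with a window (34.4%), against 17.8% of all genes tested and 17.9% of all windows. Of 90 genes with a window that were called lower by 2 or more, 28 held it (31.1%). The stretch of Ccnb2 (chr9:70421666-70421771, minus strand), whose match is in capitals, has the largest called fall among members with a match:
Ccnb2: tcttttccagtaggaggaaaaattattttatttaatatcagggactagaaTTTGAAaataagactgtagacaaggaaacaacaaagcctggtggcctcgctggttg

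**Figure D3:**
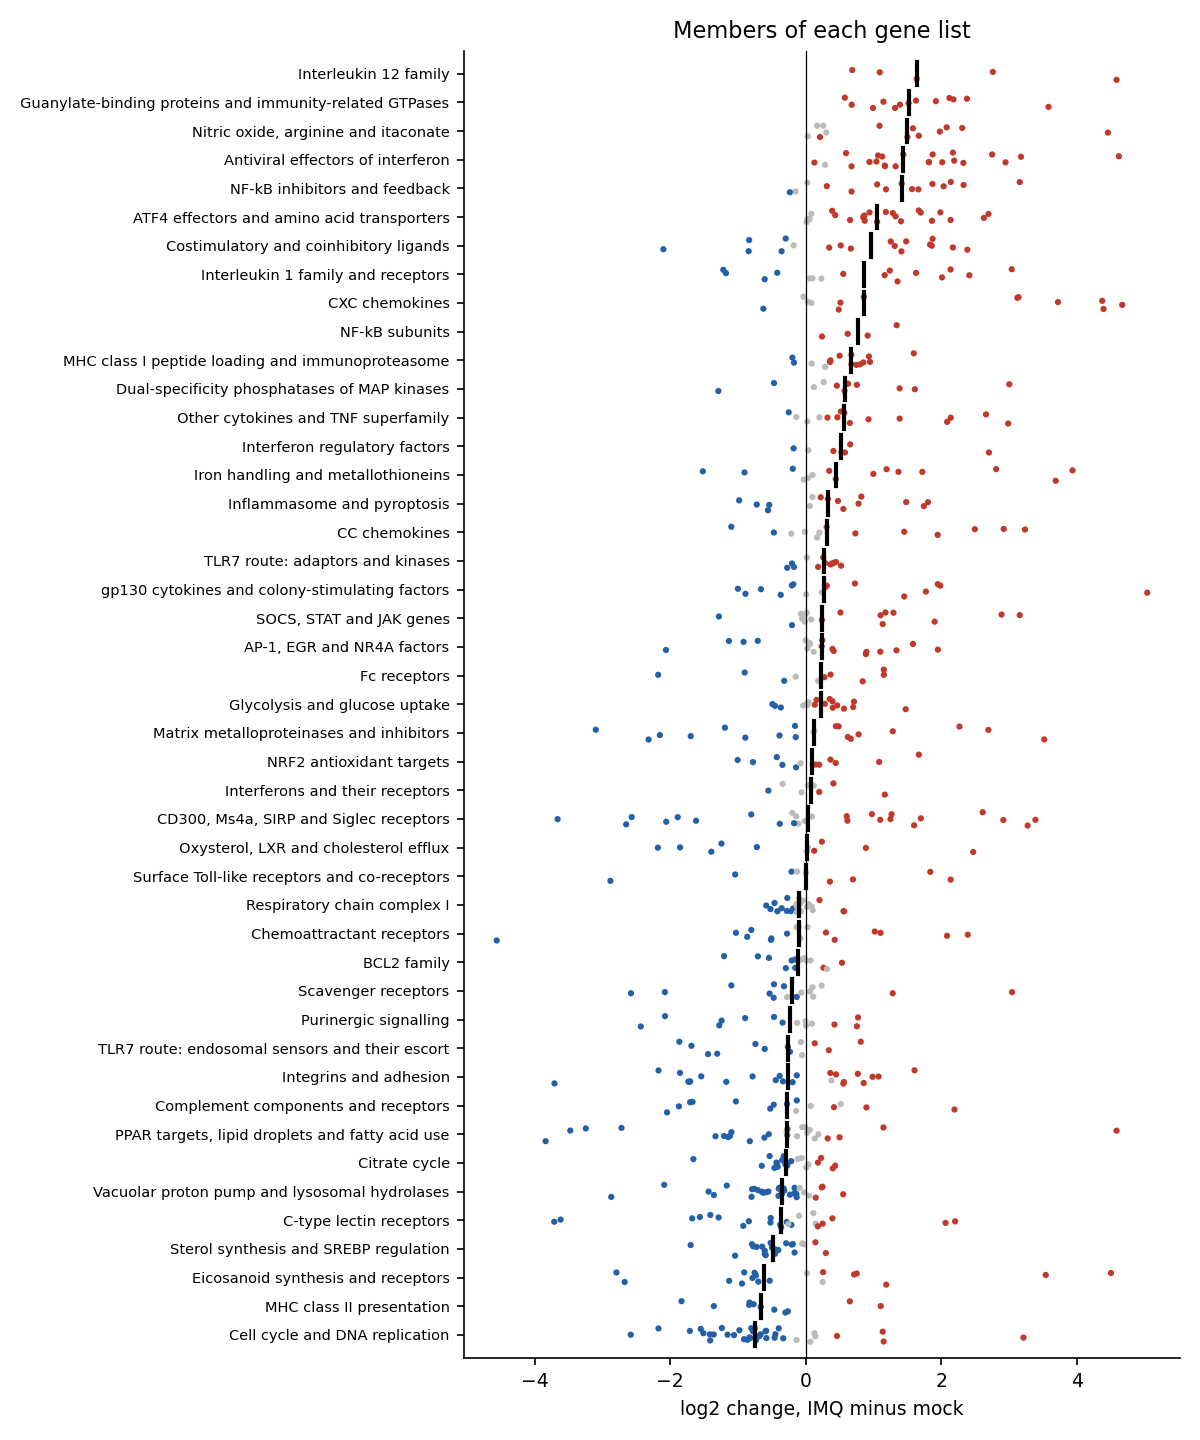
Each point is a member of a gene list, placed by its log2 change IMQ minus mock on the x axis, with the lists on the y axis sorted by median (black bar). Red points were called higher, blue points lower and grey points neither. The interleukin 12 family and the GTPases lie at the top, the cell cycle and class II presentation at the bottom.

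Metabolic genes shifted modestly, with a few large exceptions. In glycolysis and glucose uptake 11 of 18 measured members rose and 3 fell (median log2 change 0.22), led by the regulator Pfkfb3 (1.47 ± 0.05), with the transporter Slc2a1 at 0.71 ± 0.04. In the citrate cycle 4 of 22 measured members rose and 14 fell (median log2 change -0.29), led by Idh1, the cytosolic isocitrate dehydrogenase, at -1.66 ± 0.04. Aco1 (-0.65 ± 0.06) and the succinate dehydrogenase subunit Sdhd (-0.53 ± 0.05) fell less. Of the complex I subunits 3 of 26 measured members rose, 9 fell and 14 were not called (median log2 change -0.10). Among genes with at least 1 mean above the dim level, which held for all 26, 25.0% were called higher and 27.5% lower. Genes of the vacuolar proton pump and lysosome fell widely. There 4 of 33 measured members rose and 26 fell (median log2 change -0.35). Atp6v0d2, a pump subunit of macrophages, read 11.58, 11.49, 11.59 and 11.54 on the mock arrays and 8.79, 8.63, 8.77 and 8.53 on the IMQ arrays, a change of -2.87 ± 0.06. The collagenolytic cathepsin Ctsk (-2.09 ± 0.05) and the acid lipase Lipa (-1.44 ± 0.04) fell, and cathepsin C, Ctsc, rose (0.55 ± 0.04).

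Sterol synthesis genes fell. In that list 2 of 22 measured members rose and 18 fell (median log2 change -0.48), with Dhcr7 (-1.70 ± 0.09), Cyp51 (-1.04 ± 0.07) and Nsdhl (-0.80 ± 0.06) among the falls and Srebf1 (0.30 ± 0.05) among the rises. Ch25h, which makes an oxysterol that holds back SREBP processing, read 8.13, 7.93, 8.06 and 7.91 on the mock arrays and 10.49, 10.48, 10.52 and 10.40 on the IMQ arrays and rose (2.47 ± 0.06, adjusted p = 5.63e-14). The sterol regulatory element core, TCACNCCAC, stood in the window of 1 of 18 members, Hmgcs1, the enzyme that makes hydroxymethylglutaryl-CoA, and in 1.43% of all genes tested. Hmgcs1 fell from 9.30 ± 0.08 to 8.58 ± 0.10, and its stretch (chr13:119690164-119690272, plus strand) is shown with the match in capitals:
Hmgcs1: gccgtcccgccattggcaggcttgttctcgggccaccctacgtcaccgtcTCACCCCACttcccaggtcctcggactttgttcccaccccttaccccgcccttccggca

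Among oxysterol, LXR and efflux genes 4 of 11 measured members rose and 5 fell (median log2 change 0.01). Abca1, the cholesterol exporter, rose (0.89 ± 0.04), while Cyp27a1 (-2.18 ± 0.11), Nceh1 (-1.86 ± 0.05), Apoe (-1.40 ± 0.05) and Apoc2 (-1.25 ± 0.06) fell. Of PPAR targets and lipid droplet genes 4 of 26 measured members rose and 14 fell (median log2 change -0.28). Pparg, the nuclear receptor, read 7.96, 7.78, 8.12 and 8.11 on the mock arrays and 5.29, 5.36, 5.28 and 5.16 on the IMQ arrays and fell (-2.72 ± 0.08). Fabp4, a fatty acid binding protein and a known target of it, read 11.27, 11.25, 11.18 and 11.19 on the mock arrays and 7.81, 7.86, 7.70 and 7.62 on the IMQ arrays (-3.48 ± 0.07). The lipases around the endocannabinoid arachidonoylglycerol fell at both ends, Daglb, which makes it, by -3.84 ± 0.07 and Mgll, which breaks it down, by -3.25 ± 0.08 on the signed scale. Dgat2, which makes triglycerides, went the other way and read 6.41, 6.80, 6.91 and 5.07 on the mock arrays and 10.91, 10.88, 10.88 and 10.85 on the IMQ arrays. That change was 4.58 ± 0.29, 4.17 without mock replicate 4 and 5.81 against it alone.

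Several of the largest changes lay outside the lists. With predicted and unnamed loci left out, Mamdc2, a secreted proteoglycan, had the largest fall of any gene with both means above the dim level. It read 11.40, 11.33, 11.36 and 11.36 on the mock arrays and 5.93, 5.05, 5.57 and 5.57 on the IMQ arrays. The change of -5.83 ± 0.14 (adjusted p = 3.72e-14) corresponds to a 57.0-fold difference. Slc46a3, a lysosomal transporter, fell by -3.62 ± 0.08 on the signed scale, Cd93, a receptor of the C1q family, by -3.52 ± 0.06, and Slc36a2, an amino acid transporter, by -3.45 ± 0.13. The odorant receptor genes Olfr111 (8.61 to 5.09) and Olfr110 (7.64 to a dim 4.73), were bright in the mock arrays and fell. Lrrc32 (GARP), which holds latent TGF-beta on the surface, fell from 8.81 ± 0.09 to 5.61 ± 0.28. On the higher side, Susd2 rose by 4.26 ± 0.18, the glutamate transporter Slc1a2 by 4.02 ± 0.16, Adgb by 4.33 ± 0.18 and the pantetheinase Vnn3 by 3.99 ± 0.16. Without mock replicate 4 Susd2 changed by 4.05 and Vnn3 by 3.78, and against it alone by 4.88 and 4.62. The long noncoding gene U90926 read 9.53, 10.09, 9.91 and 4.46 on the mock arrays and 12.85, 12.88, 12.82 and 12.91 on the IMQ arrays, the widest mock spread among them, and its change was 4.37 ± 1.23, 3.02 without mock replicate 4 and at least 7.93 against it alone.

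With predicted and unnamed loci left out, the steadiest rises by moderated t were in Slamf6, Asns, Irf7, Ccnd2, Car13, Ch25h, Smpdl3b, Rcl1, Rab32 and Zbp1. Slamf6, a homophilic receptor of lymphocytes and myeloid cells, read 6.04, 5.95, 6.17 and 5.90 on the mock arrays and 8.77, 8.79, 8.80 and 8.72 on the IMQ arrays. The mock arrays of this gene lay within a narrow range, unlike those of Il6. Car13, a cytosolic carbonic anhydrase, read 8.61, 8.59, 8.69 and 8.47 on the mock arrays and 10.73, 10.68, 10.66 and 10.72 on the IMQ arrays. The steadiest falls, by the same rule, were in Mrc1, Cd93, Daglb, Fabp4, Pld4, Hgf, Arhgap25, Entpd1, Sulf2 and Cd300lb. Pld4, an endolysosomal exonuclease that degrades single-stranded nucleic acids, ligands of TLR7 and TLR9, read 11.24, 11.25, 11.27 and 11.32 on the mock arrays and 9.01, 9.10, 9.08 and 9.01 on the IMQ arrays (-2.22 ± 0.04). Hgf, hepatocyte growth factor, fell by -2.31 ± 0.05 on the signed scale. Genes that went from dim to bright included Tmc3 (at least 3.55), the stefin gene Stfa3 (at least 3.27) and the retinol dehydrogenase Rdh12 (at least 2.34), and those from bright to dim included Gask1b (a fall of at least 3.44) and Arhgap15 (a fall of at least 2.53).

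Probe sets for 478 microRNA loci were tested, of which 33 were called higher (against 17.0% of all genes) and 37 lower (against 17.9%). Both shares were below those of all genes, and 330 loci were dim in both groups. These probes read the precursor or host transcript and not the mature microRNA. Of the 122 with both means above the dim level, 16 rose and 11 fell. Among all genes with at least 1 mean above that level, 25.0% were called higher and 27.5% lower. Of the 478 loci 426 matched a RefSeq sequence. Mirlet7e had the largest rise (5.92, 5.92, 5.98 and 5.96 on the mock arrays and 7.23, 7.12, 7.16 and 7.16 on the IMQ arrays, a change of 1.22 ± 0.05, adjusted p = 1.09e-11). Mir99b, encoded next to it, rose by 0.72 ± 0.13 (adjusted p = 0.000236), and the separate locus Mirlet7i by 0.82 ± 0.09. Mir342 had the largest fall and read 7.23, 7.21, 7.28 and 7.64 on the mock arrays and 5.59, 5.66, 5.18 and 5.33 on the IMQ arrays (-1.90 ± 0.16), and Evl, the actin regulator gene that hosts it, read 10.26, 10.28, 10.23 and 10.26 on the mock arrays and 8.06, 7.84, 7.93 and 8.09 on the IMQ arrays (-2.28 ± 0.06). These loci and Evl were chosen after their values were seen.

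Mature sequences of those 4 loci from RefSeq (GRCm38.p6) are given with the seed, bases 2 to 8, in capitals. The first pair shares a seed though the loci lie on chromosomes 17 (chr17:17830366-17830387, plus strand) and 10 (chr10:122985698-122985719, minus strand). The third lies at chr17:17830194-17830215 on the plus strand, just before let-7e, and the fourth at chr12:108658680-108658702 on the plus strand:
mmu-let-7e-5p: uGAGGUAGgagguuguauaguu
mmu-let-7i-5p: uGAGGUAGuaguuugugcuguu
mmu-miR-99b-5p: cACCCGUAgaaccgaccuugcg
mmu-miR-342-3p: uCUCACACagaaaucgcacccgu

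The same agonist was also given with PA, to other arrays, and the difference between the responses was tested as an interaction. With PA, 7836 genes were called, 16.8% of all genes higher and 18.5% lower. Of the calls without PA, 70.5% were also called with PA in the same direction, as were 69.5% of the calls with PA in the reverse reading. The difference was called in 3015 genes (13.6%), and in 1683 with mock replicate 4 as the only mock array. Tlr7 fell by -0.61 ± 0.05 on the signed scale without PA and -1.42 ± 0.05 with it (difference -0.81 ± 0.07, adjusted p = 6.48e-07). Tnf changed by 2.98 ± 0.08 and 2.18 ± 0.08 (difference -0.81 ± 0.11, adjusted p = 0.000103), and Il12b by 2.76 ± 0.12 and 3.33 ± 0.12 (difference 0.57 ± 0.17, adjusted p = 0.0353). Myd88 rose without PA and fell with it, with a change of -0.23 ± 0.08 (difference -0.67 ± 0.11, adjusted p = 0.000571). Differences in the positive direction were called for Cd86 (0.77 ± 0.09), Cxcl10 (0.86 ± 0.18), Arg1 (0.74 ± 0.13), Ccr7 (0.39 ± 0.07) and Ccl22 (0.36 ± 0.06). For Il6 (1.28 ± 1.25, adjusted p = 0.588), Nos2 (0.70 ± 0.68, adjusted p = 0.582) and Socs3 (0.08 ± 0.16, adjusted p = 0.815) the difference was not called, with a wide error for the first 2. Lrrc32 fell without PA and rose by 0.53 ± 0.10 with it (difference 3.73 ± 0.15). Ch25h rose by 2.47 ± 0.06 without PA and by 0.30 ± 0.06 with it (difference -2.17 ± 0.09, adjusted p = 3.31e-10).

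**Figure D4:**
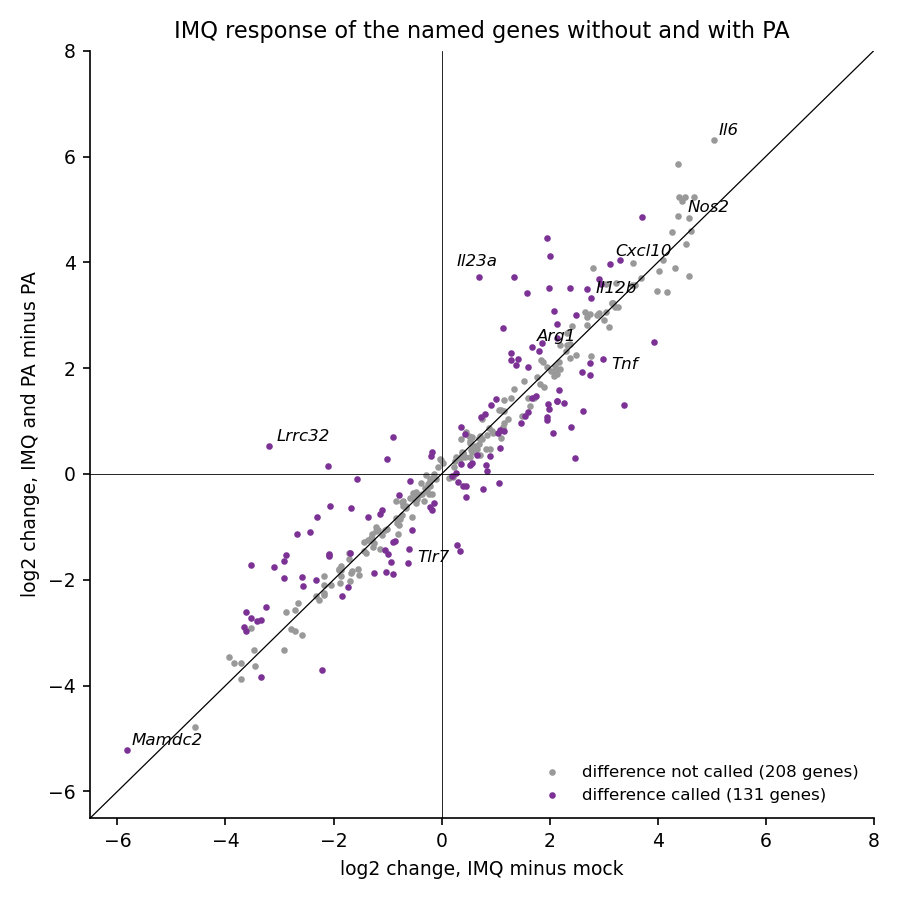
Each point is a gene chosen by the naming rule or named in the text, with its log2 change IMQ minus mock on the x axis and IMQ and PA minus PA on the y axis. Purple marks genes whose difference was called and the diagonal marks equal change. Il6 and Nos2 lie above the diagonal without a called difference, Tlr7 and Tnf lie below it, and Lrrc32 and Il23a lie far above it.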

How the data were processed

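Total RNA of 16 GM-DC samples was hybridised to 1-colour Affymetrix whole-transcript mouse arrays, per the labels' protocols. The authors deposited log2 values made with RMA and affy, per the submitters' processing notes, which give no versions. The build behind the array's annotation is not given in the sources used here. There were 41345 probe sets, with values from 0.628 to 13.53 and none missing. Symbols came from the platform annotation and were looked up in RefSeq (GRCm38.p6, names and sequences only). Of the probe sets 23521 named 1 gene, 1814 named several and 16010 had none listed, and the last 2 kinds were left out. That gave 22180 genes, 1082 of them with several probe sets.

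limma 3.58.1 (R 4.3.3) estimated the 4 group means from the log2 values, using every array (eBayes, 12 residual and 2.96 prior degrees of freedom, two-sided tests, Benjamini-Hochberg over all genes, with no filter on dim genes). The steps were tested on simulated data. The contrast and the 52 lists (858 genes, 789 measured, 69 not analysed here, 32 in more than 1 list) were chosen with earlier results of these data known, so a list's count is no independent evidence of its direction. The genes named are the 15 largest called, non-overlapping changes each way with both means above the dim level, the 8 brightest each way with 1 dim side, the 10 largest moderated t each way, from each list up to 4 called genes in the direction with more calls and up to 2 in the opposite one, and 18 preset genes. Predicted and unnamed loci were left out of all kinds but the list members and the preset genes. Genes outside this rule (Ccnd3, Csf1r, Csf2ra, Csf2rb, Evl, H2-Aa, H2-Ab1, Hmgcs1, Il23a, Itgae, Itgam, Ltf, Ly6g, Lyz2, Mpo, Siglech, Tyms, Xcr1, Zbtb46 and 4 microRNA loci) were named for their role in a list or after their values were seen. Windows for 16990 genes were searched for motifs, and a gene counted when any of its windows held a match. Alternatives were the 8 arrays alone, a variance trend, a replicate block, 2 other normalizations, dim genes left out, the mean of a gene's probe sets, and arrays left out.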

Additional observations from a re-analysis of the deposited data

Results flagged for a closer look

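For each of the 264 genes named above, a value was marked when its gap to the nearest of the other 3 arrays of its group took most of the group's range (Dixon's limit for 4 values). Chance marks about 1 in 20 groups. Of 528 groups 47 were marked, 27 of them through mock replicate 4. That array lay below the other mock arrays, by at least 0.5, in Ccl3 (10.61 against 11.13 to 11.24), Cxcl2 (4.82 against 7.03 to 7.21), Cxcl3 (4.4 against 8.66 to 9.15), Il12a (4.75 against 6.06 to 6.2), Il1a (8.28 against 10.02 to 10.32), Il1b (9.4 against 11.08 to 11.28), Il6 (4.32 against 7.57 to 7.9), Inhba (6.99 against 7.65 to 7.72), Lcn2 (7.47 against 10.4 to 10.62), Nos2 (5.57 against 7.77 to 7.96), Ptgs2 (5.3 against 8.49 to 8.95), Serpinb2 (7.66 against 8.42 to 8.51), U90926 (4.46 against 9.53 to 10.09) and Vnn3 (6.32 against 7.14 to 7.19). Smaller gaps below the others were found in Abca1 (10.26 against 10.3 to 10.31), Acod1 (9.42 against 9.75 to 9.82), Ccr7 (10.08 against 10.23 to 10.24), Ctsc (11.35 against 11.45 to 11.46), Gbp7 (7.94 against 8.14 to 8.17), H2-Ab1 (12.3 against 12.32 to 12.32), Ifnar2 (10.03 against 10.15 to 10.17), Mmp2 (8.4 against 8.68 to 8.71), Nfkbia (9.43 against 9.71 to 9.77), Socs3 (6.38 against 6.73 to 6.77) and Sod2 (10.31 against 10.75 to 10.76). Mock replicate 4 lay above the others in Jun (10.03 against 9.91 to 9.92) and Mir342 (7.64 against 7.21 to 7.28). Its part in the response was not tested.

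Other arrays stood apart in fewer genes. IMQ replicate 1 stood apart in Map3k8 (8.59 against 8.44 to 8.46). IMQ replicate 2 stood apart in Nlrp3 (9.39 against 9.37 to 9.37). IMQ replicate 3 stood apart in C3ar1 (10.14 against 9.98 to 9.99), Ccl3 (12.9 against 12.99 to 13.01), Clec4b1 (2.76 against 1.85 to 1.98), Cxcr4 (10.03 against 9.94 to 9.95), Dusp4 (7.99 against 7.6 to 7.65), Gbp5 (9.34 against 9.2 to 9.21) and Tlr13 (8.76 against 8.5 to 8.53). IMQ replicate 4 stood apart in Nfkbia (11.63 against 11.7 to 11.72), Siglece (8.29 against 8.5 to 8.52) and Slc15a4 (8.02 against 8.24 to 8.28). Mock replicate 1 stood apart in Clec7a (12.06 against at most 12.01) and Dhcr7 (7.79 against 8.02 to 8.05). Mock replicate 2 stood apart in Ctsk (10.19 against 10.32 to 10.34), Sdhd (9.35 against 9.5 to 9.52) and Steap3 (6.73 against 7.22 to 7.27). Mock replicate 3 stood apart in Ifi30 (10.56 against 10.49 to 10.5), Siglecf (8.02 against 7.9 to 7.91) and Tnfsf14 (4.97 against 5.31 to 5.37).

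The response to IMQ differed between cells with and without PA, by the interaction test in limma, in 11 genes whose difference is given above. The log2 differences, with PA minus without, were Tlr7 -0.81 ± 0.07 (adjusted p = 6.48e-07), Myd88 -0.67 ± 0.11 (adjusted p = 0.000571), Tnf -0.81 ± 0.11 (adjusted p = 0.000103), Il12b 0.57 ± 0.17 (adjusted p = 0.0353), Arg1 0.74 ± 0.13 (adjusted p = 0.000827), Ccr7 0.39 ± 0.07 (adjusted p = 0.00116), Cxcl10 0.86 ± 0.18 (adjusted p = 0.00472), Cd86 0.77 ± 0.09 (adjusted p = 2.88e-05), Ccl22 0.36 ± 0.06 (adjusted p = 0.00082), Lrrc32 3.73 ± 0.15 (adjusted p = 3.36e-10) and Ch25h -2.17 ± 0.09 (adjusted p = 3.31e-10).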

How the results depend on the processing

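The design named the replicate block as an alternative, and when the other alternatives were chosen was not recorded. The direction of each called gene named in the text held in every fit, and the counts of genes called higher (2659 to 3865 against 3766) and lower (2845 to 4084 against 3961) stayed within 1.5 times. Genes with a change of at least 1 numbered 1106 to 1210 against 1138. With mock replicate 4 as the only mock array 5504 genes were called in all, which held 67.3% of the main calls, and the difference between the responses with and without PA was called in 1683 genes against 3015. Over fits without a single array that last count was 2600 to 2897, and calls with PA numbered 7401 to 7556 against 7836. Of the named genes Btk, Csf1r, Csf2rb, Il23a, Irak1, Irf2, Itgam, Mir99b, Myd88, Pdia3, Ppbp and Tyk2 lost the call against mock replicate 4 alone, with adjusted p from 0.054 for Btk to 0.151 for Itgam. Itgam also lost it when the 8 arrays of the comparison were fitted alone (adjusted p = 0.0505). With the replicate number as a replicate block 7721 genes were called (3762 higher, 3959 lower), and 2942 for the difference. Deviations of same-numbered mock and IMQ arrays correlated at -0.0159 to 0.173. Mock replicates 2 and 3 correlated best with the IMQ array of their own number, and mock replicates 1 and 4 did not. These correlations cannot tell whether same-numbered arrays share an animal or culture, which the labels do not name. Scaling alternatives moved the share of higher among all calls from 48.7% to between 48.8% and 49.1%. An array signal near the dim level limits what can be said of Ifnb1 and of each change given as a lower bound.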

Other observations

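Lists not described above changed in both directions, while 17.0% of all genes were called higher and 17.9% lower. Of 13 measured NRF2 antioxidant targets 6 rose and 5 fell (median log2 change 0.10). Slc7a11, the cystine transporter chain, rose by 1.67 ± 0.05 and Gsr, glutathione reductase, by 1.08 ± 0.05, while Nqo1, a quinone reductase, changed by -1.01 ± 0.08. Of 14 measured genes of the BCL2 family 2 rose and 7 fell (median -0.12). The survival gene Bcl2 changed by -1.21 ± 0.08 and Bcl2l11, the gene of the death effector BIM, by -0.71 ± 0.05, and Bak1, a pore-forming death effector, by 0.53 ± 0.06.

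Among marker lists of other cell types, 3 of 9 plasmacytoid dendritic cell genes rose and 1 fell, against 17.0% and 17.9% of all genes. Of the 9, 4 had both means below the dim level. The rises were Irf7 (2.70 ± 0.06), Bst2 (1.07 ± 0.06) and Tcf4 (0.27 ± 0.06), of which Irf7 and Bst2 are also induced by interferon. Of 11 genes of mast cells, basophils and eosinophils 3 rose and 1 fell, against the same shares of all genes. Every IMQ value lay above every mock value in 1 of the 11. The fall was in the sialic acid receptor Siglecf (-2.57 ± 0.06), and 7 of the 11 had both means below the dim level. Of 4 measured erythroid genes 1 rose and 0 fell by limma (0 lower at an unadjusted p under 0.05), again against 17.0% and 17.9% of all genes. Of the 4, 1 had both means below the dim level.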
